A study of Mus musculus with 4 samples.

Results

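In inflamed mouse ears, 10 genes of the vessel wall were followed: the leukocyte adhesion molecules Sele, Selp, Vcam1, Icam1 and Icam2, the endothelial junction genes Cdh5 and Pecam1, the growth factor receptor genes Kdr and Tek, and the lymphatic gene Lyve1. They were chosen by name, as every non-control spot that carries 1 of these 10 gene names, which gave 31 spots of 12 probes among 59305 spots of 55681 probes and 35019 gene names. Total RNA came from whole ears collected 48 h after the contact allergen 2,4-dinitrofluorobenzene (DNFB) had been applied, and 100 ng per sample was labelled with Cy3 and read on 1 one-colour Agilent array per mouse. The 2 mutant mice carried floxed RelA alleles (RelAfl/fl) and K14Cre, and are called RelAE-MUT in the labels. The 2 wild-type mice carried the same floxed alleles (RelAfl/fl) without the recombinase. Strain, age and sex are not given in the sources used here, both groups were treated with DNFB, and an untreated ear was not analysed here. RelA, also called p65, is one of the subunits of NF-kB, a family of transcription factors. The keratin 14 promoter is active in basal keratinocytes and not in endothelial cells, while the RNA of a whole ear comes from both. Only the mutants carry Cre, so that an effect of the recombinase cannot be told apart from one of the deletion. With 2 mice per group, limma's p-values rest on the spread between these animals and on a variance shared over all genes tested.

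During skin inflammation the cells lining small veins put selectins on their surface, which let leukocytes roll, and then ligands of integrins, which make them stop and cross the wall. E-selectin, VCAM-1 and ICAM-1 are textbook NF-kB targets that endothelial cells make in response to tumour necrosis factor and interleukin 1. VE-cadherin, PECAM-1, ICAM-2, VEGF receptor 2 and TIE2 are made by resting endothelium as well and are widely used to mark vessels.

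The expression of the 10 genes differed little between mutant and wild-type ears. None passed limma's test at an adjusted p under 0.05 over all genes. This was 0 of 10, where 0.0168% of 23753 genes tested passed it, 0.00842% higher and 0.00842% lower in the mutants. Of the 12 probes likewise 0 passed, where 0.0208% of all probes tested did. Before adjustment, p was under 0.05 in 0 of the 10 genes and in 6.5% of the genes tested. The log2 fold changes, mutant minus wild type, lay between -0.16 for Pecam1 and 0.20 for Lyve1, with a median of -0.11 over the 10 genes and of 0.01 over all genes tested. The median of the 10 genes was not stable: it was 0.014 without mutant mouse 2 and -0.015 without wild-type mouse 1. With normexp background correction it was -0.039, but the offset of 50 added there shrinks the differences of dim probes. Of the 10 genes, 6 had lower and 4 higher mean values in the mutants, and 46.5% of all genes had lower ones. The groups did not overlap in 5 of the 10 genes, which is to be read against 36.3% of all genes. The mutants were lower without overlap in 3 (Sele, Icam1, Tek) and higher in 2 (Kdr, Lyve1), against 17.4% and 18.9% of all genes. In 6 of the 10 genes the gap between the 2 mice of one group was wider than the difference between the group means. The 95% intervals of the single genes, not adjusted for their number, ran from 0.659-fold at the lowest bound to 1.86-fold at the highest, both reached by Selp, so that each of the 10 left out a 2-fold change in either direction. A p that misses the threshold does not show that a gene had the same level in both groups. In whole tissue, fewer vessel cells and less RNA per cell cannot be told apart. Exact permutation of 2 against 2 mice cannot go below a two-sided p of 0.333.

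**Figure D1:**
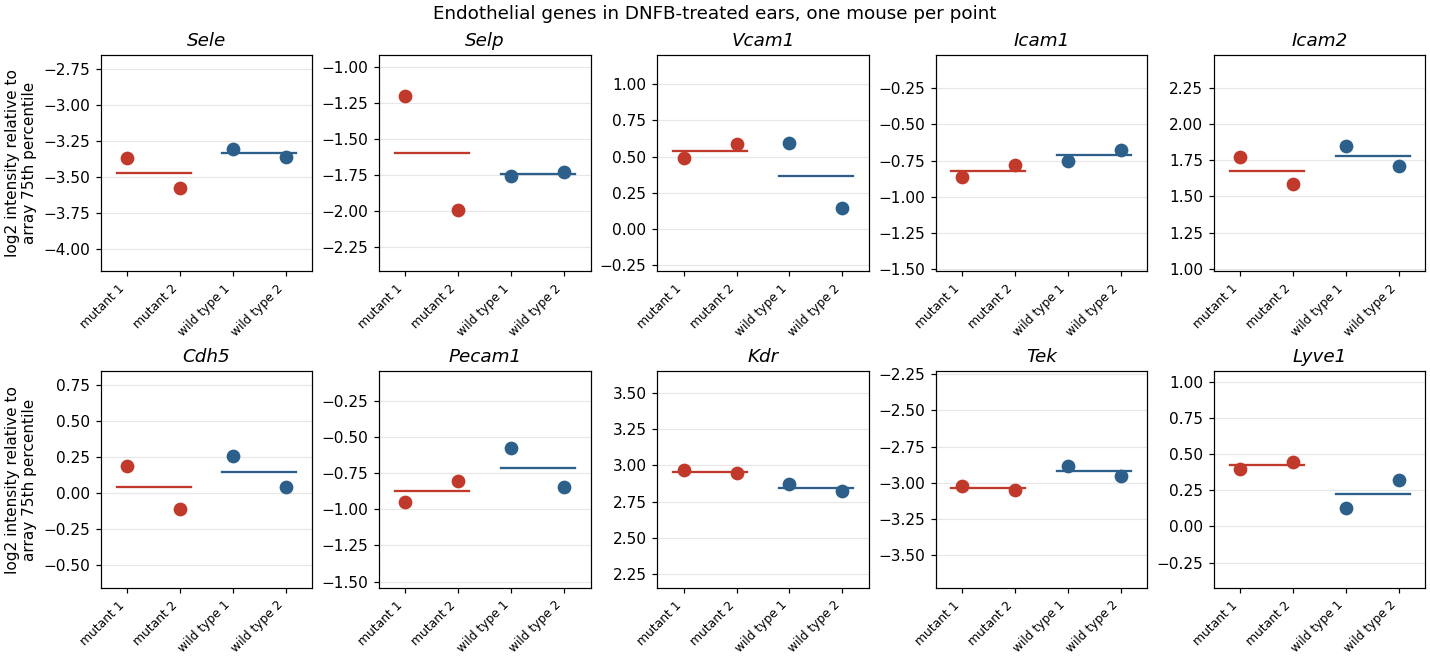
Log2 intensity, scaled to the 75th percentile of its array, of each of the 10 genes at its brightest probe, with one point per mouse (mutant in red, wild type in blue), a line at each group mean and the same height of axis in every panel. The widest gap is that between the 2 mutant mice in Selp (-1.20 and -1.99), and the groups stand apart without overlap in Sele, Icam1, Tek, Kdr and Lyve1.

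As for the arrays themselves, the spots of all 12 probes were well above background on all 4 arrays and 0 were saturated, and 61.2% to 64.3% of all spots of an array were well above background. Array pairs without mutant mouse 2 correlated across genes, which are not independent replicates, with Pearson's r between 0.9925 and 0.9932, and pairs with it between 0.9828 and 0.9878. The array of mutant mouse 2 stood apart on the first principal component (55.7, against -7.17 for mutant mouse 1 and -17.0 and -31.5 for the wild-type mice 1 and 2) and had a damaged area of 1327 spots, which held the spot of Cdh5 and no other of the 31. Rela itself stood at 4.59 and 4.72 in the mutants, against 4.48 and 4.60 in the wild types, in log2 intensity minus that of the 75th percentile of the array, which is the scale of all log2 values given below. Its difference of 0.11 ± 0.12 (SE, n = 2 mice per group) did not pass limma's test (adjusted p = 0.888). Which exons were deleted is not in the labels, and an ear holds many cells that do not use the keratin 14 promoter, so that this probe is no check of the deletion. The defining markers of blood endothelium were measured: all 25 genes of a list of other blood endothelial genes were tested, as were the lymphatic markers Prox1, Pdpn, Flt4, Reln and Mmrn1.

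Sele encodes E-selectin, which is made by activated endothelium and binds glycans on leukocytes. Its single probe (chr1:165987726-165987785, mm9) gave log2 values of -3.37 and -3.58 in mutant mice 1 and 2, against -3.31 and -3.36 in wild-type mice 1 and 2. Both mutants were lower, but mutant mouse 1 and wild-type mouse 2 were almost level. Mutant minus wild type was -0.14 ± 0.12 on the log2 scale (SE, n = 2 mice per group; limma adjusted p = 0.883), a difference exceeded in size by 42.6% of all genes tested. Without mutant mouse 2 it was -0.04. With normexp background correction of the raw signal it was -0.03, but the offset of 50 added there shrinks the differences of dim probes such as this.

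Selp encodes P-selectin, which endothelial cells and platelets store in granules and bring to the surface when activated. Its probe (chr1:166079660-166079719, mm9) lay on each array in 10 spots. Their spread shows the error between spots of 1 array, but not that of labelling or between arrays. The 10 spots averaged a processed intensity of 269.9 ± 13.2 (SD) in mutant mouse 1, and the 9 spots without an outlier flag in mutant mouse 2 averaged 148.5 ± 9.74. In the wild-type mice 1 and 2 the 10 spots averaged 196.8 ± 8.52 and 188.2 ± 6.93. The log2 means were -1.20 and -1.99 in the mutants, against -1.75 and -1.73 in the wild types. One mutant was therefore above and the other below both wild-type mice, and the spots of the 2 mutants did not overlap (lowest -1.33 in mutant mouse 1, highest -1.86 in mutant mouse 2). Selp in mutant mouse 1 was 1.73-fold that in mutant mouse 2, while the 2 wild-type mice differed by 0.03 on the log2 scale, within the SD of 0.05 to 0.06 between their spots. The log2 fold change of the groups was 0.15 ± 0.28 (SE, n = 2 mice per group; limma adjusted p = 0.944), the largest standard error of the 10 genes. It was 0.54 without mutant mouse 2 and -0.25 without mutant mouse 1, neither past the threshold.

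Platelet genes were read beside Selp. Of 8 listed genes 6 were tested, with a median log2 fold change of -0.11 and 0 past the threshold over all genes. Ppbp, a platelet chemokine, had log2 values of -2.58 and -4.50 in the mutants, against -4.24 and -4.02 in the wild types, and was, like Selp, highest in mutant mouse 1 and lowest in mutant mouse 2. Pf4, platelet factor 4, had 5.10 and 4.62 in the mutants, against 4.87 and 4.77 in the wild types, in the same order of the mutants. Gp1ba, the alpha chain of platelet glycoprotein Ib, had -4.75 and -5.00 in the mutants, against -4.04 and -4.61 in the wild types, a difference of -0.55 ± 0.23 (limma adjusted p = 0.791). It was the only one of the 6 whose groups did not overlap, against 36.3% of all genes tested, and mutant mouse 2 was again the lowest. Gp1bb, the beta chain of the same glycoprotein, had -2.30 and -1.93 in the mutants, against -2.17 and -1.73 in the wild types, with mutant mouse 1 the lowest. In Itga2b (-2.17 and -1.98) and Treml1 (-3.64 and -3.38) mutant mouse 1 was likewise below mutant mouse 2, unlike in Selp. Over all 23753 genes tested, 5882 were highest in mutant mouse 1 and 5251 were lowest in mutant mouse 2. The part of platelets in the values of Selp was not tested.

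**Figure D2:**
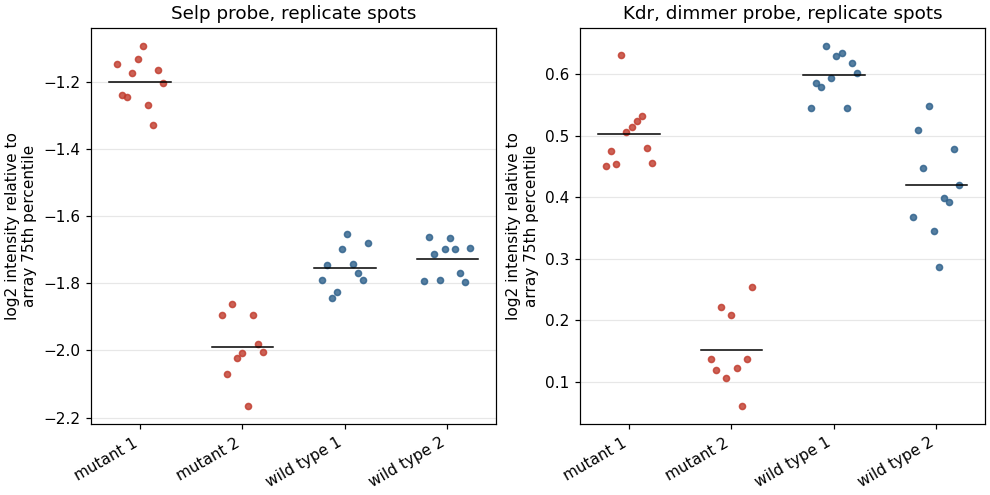
Log2 intensity, scaled to the 75th percentile of its array, of the single spots of the Selp probe and of the dimmer Kdr probe, by mouse (mutant in red on the left, wild type in blue), with black lines at the means of 10 spots, or of 9 spots in mutant mouse 2. Spots of one mouse scatter less than the 2 mutants differ from each other, at -1.20 and -1.99 for Selp and at 0.50 and 0.15 for Kdr.

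Vcam1 encodes a ligand of the integrin alpha 4 beta 1 on lymphocytes, monocytes and eosinophils. It had 2 probes, a brighter one at chr3:115813216-115813275 and a dimmer one at chr3:115828953-115829012 (mm9). The sequence of the dimmer one is shown because it did not give the same difference as the one that stands for the gene.
Vcam1, dimmer probe, chr3:115828953-115829012 on the minus strand of mm9: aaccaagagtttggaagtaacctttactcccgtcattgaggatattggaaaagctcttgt
At the brighter probe the log2 values were 0.49 and 0.59 in the mutants, against 0.59 and 0.14 in the wild types. Wild-type mouse 2 was low and the other 3 mice were close together. The log2 fold change was 0.17 ± 0.18 (SE, n = 2 mice per group; limma adjusted p = 0.894), but -0.051 when wild-type mouse 2 was left out and 0.40 when wild-type mouse 1 was. The dimmer probe had -3.04 and -3.12 in the mutants, against -2.87 and -3.23 in the wild types, with wild-type mouse 2 again the lowest and a difference of -0.03 ± 0.16.

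Icam1 encodes the ligand of the beta 2 integrins on leukocytes, and is made by inflamed keratinocytes and many leukocytes as well as by endothelium. The sequence of its single probe is shown beside that of its promoter further on, since Icam1 is a textbook NF-kB target.
Icam1, chr9:20832290-20832349 on the plus strand of mm9: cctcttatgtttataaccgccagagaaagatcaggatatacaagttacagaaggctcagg
It gave log2 values of -0.87 and -0.78 in the mutants, against -0.75 and -0.67 in the wild types. Both mutants were lower, with the nearest values of the groups less far apart than the mice within a group. This difference was -0.11 ± 0.11 (SE, n = 2 mice per group; limma adjusted p = 0.886), and it stayed between -0.15 and -0.07 over the 17 alternatives tried. Icam2, whose product is a constitutive endothelial ligand of the same integrins, had 1.77 and 1.59 in the mutants, against 1.85 and 1.71 in the wild types (chr11:106238971-106239030, mm9). Here the groups overlapped, and the difference was -0.10 ± 0.13.

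Because RelA is the factor deleted in the epidermis of these mice, the promoters of the 10 genes were searched for NF-kB motifs. RefSeq windows of 250 bases before to 50 after the start site (GRCm38.p6) were at hand for 5 of the 10 genes, Sele, Selp, Icam1, Kdr and Tek. The letters GGNNTTTCC, read on both strands, were found in 2 of the 5, Icam1 with 2 matches and Selp with 1, and in 5.82% of 32851 such windows of all genes. The NF-kB consensus GGGRNWYYCC (R is A or G, W is A or T, Y is C or T), read on both strands, was found in 1 of the 5, Kdr, and in 4.51% of all windows. None of these matches overlapped another. Sele and Tek had 0 matches of either kind. A site that departs from these letters, or lies outside the window, is missed by this search. The window of Icam1 is shown since it held most matches, which are in capitals and begin at positions -153 and -84 from the start site.
Icam1 promoter, chr9:21015690-21015989 on the plus strand of GRCm38.p6: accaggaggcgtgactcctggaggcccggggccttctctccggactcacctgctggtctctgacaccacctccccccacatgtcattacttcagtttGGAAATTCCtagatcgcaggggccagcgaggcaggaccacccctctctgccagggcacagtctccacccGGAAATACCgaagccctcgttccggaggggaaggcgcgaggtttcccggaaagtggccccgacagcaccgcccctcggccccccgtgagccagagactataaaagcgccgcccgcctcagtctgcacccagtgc
A match is a description of these letters and not a site of binding, which was not measured.

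Cdh5 encodes VE-cadherin, the adhesion molecule of endothelial junctions. Its single probe (chr8:106668159-106668218, mm9) gave log2 values of 0.19 and -0.11 in the mutants, against 0.26 and 0.04 in the wild types. Mutant mouse 2 was the lowest of the 4, and the groups overlapped. The log2 fold change was -0.11 ± 0.16 (SE, n = 2 mice per group; limma adjusted p = 0.920), but 0.039 without mutant mouse 2. The spot of mutant mouse 2 lay at the edge of the damaged area, where 7 of its 49 bright neighbours were dark (14.3%). The median neighbour was 0.05 above the mean of the other arrays and the Cdh5 spot 0.27 below it. With the damaged area left out Cdh5 has no value.

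Pecam1 encodes CD31, found at endothelial junctions and also on platelets and leukocytes. It had 2 spots of 1 probe (chr11:106540864-106540923, mm9), with log2 means of -0.95 and -0.81 in the mutants, against -0.58 and -0.85 in the wild types. Wild-type mouse 1 stood above the other 3 mice, and the groups overlapped. The difference of -0.16 ± 0.14 (SE, n = 2 mice per group; limma adjusted p = 0.882) was -0.03 when wild-type mouse 1 was left out and -0.30 when wild-type mouse 2 was.

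Kdr encodes VEGF receptor 2, the main signalling receptor for vascular endothelial growth factor. Its 2 probes lie close together on chromosome 5 and gave differences of opposite sign, one at chr5:76330395-76330454 and one at chr5:76329309-76329368 (mm9). The sequence of the brighter one, which stands for the gene, is shown.
Kdr, brighter probe, chr5:76330395-76330454 on the minus strand of mm9: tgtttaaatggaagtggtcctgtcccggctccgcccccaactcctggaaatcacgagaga
At the brighter probe, a single spot per array, the log2 values were 2.97 and 2.95 in the mutants, against 2.87 and 2.82 in the wild types. Both mutants were higher, by 0.11 ± 0.10 (SE, n = 2 mice per group; limma adjusted p = 0.886). At the dimmer probe, averaged over 9 or 10 spots, they were 0.50 and 0.15 in the mutants, against 0.60 and 0.42 in the wild types. There mutant mouse 2 was low and the groups overlapped, with a difference of -0.18 ± 0.17 (limma adjusted p = 0.891 over all probes). The SD between spots of the dimmer probe was 0.04 to 0.08 per array, and mutant mouse 1 was 1.27-fold mutant mouse 2. Averaged over both probes Kdr had a difference of -0.035. No direction can be given for Kdr from these probes.

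Tek encodes TIE2, the receptor of the angiopoietins, which keep vessels quiescent or loosen them. Its probe (chr4:94540624-94540683, mm9) gave log2 values of -3.03 and -3.05 in the mutants, against -2.89 and -2.95 in the wild types. Both mutants were lower and each pair of mice lay close together. The difference was -0.12 ± 0.10 (SE, n = 2 mice per group; limma adjusted p = 0.882). It was -0.046 with normexp background correction, whose offset of 50 shrinks the differences of dim probes such as this.

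Lyve1 encodes a hyaluronan receptor of lymphatic endothelium that some tissue macrophages also carry. Its probe (chr7:117994171-117994230, mm9) gave log2 values of 0.40 and 0.45 in the mutants, against 0.13 and 0.32 in the wild types. Both mutants were higher, and wild-type mouse 1 was the lowest. The log2 fold change of 0.20 ± 0.12 (SE, n = 2 mice per group; limma adjusted p = 0.863) was the largest in size of the 10 genes, though 29.7% of all genes tested had a larger one. It lay between 0.10 and 0.29 over the 17 alternatives tried. Of the other lymphatic genes, 9 of 11 listed were tested, 5 with higher and 4 with lower values in the mutants, 0 past the threshold, with a median log2 fold change of 0.02. That median was -0.25 without mutant mouse 1 and 0.15 without mutant mouse 2. Mmrn1, a secreted protein of lymphatic endothelium, had 0.98 and 1.02 in the mutants, against 0.84 and 0.80 in the wild types, and Reln, which encodes reelin, -5.36 and -5.44, against -5.20 and -5.02. Stab1, a scavenger receptor of lymphatic endothelium and macrophages, had a difference of 0.15 ± 0.13. The 8 tissue macrophage genes had a median of -0.10, with 3 higher, 5 lower and 0 past the threshold. Among them Timd4, a phosphatidylserine receptor, had the largest difference, -0.79 ± 0.30. C1qb, a complement subunit, had -0.43 ± 0.36, with wild-type mouse 1 at 3.09 and the other mice between 2.07 and 2.19. The 3 higher genes were F13a1 (0.15 ± 0.12), Cd163 (0.15 ± 0.23) and Mrc1 (0.03 ± 0.13). The part of these lymphatic and macrophage genes in the values of Lyve1 was not tested.

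**Figure D3:**
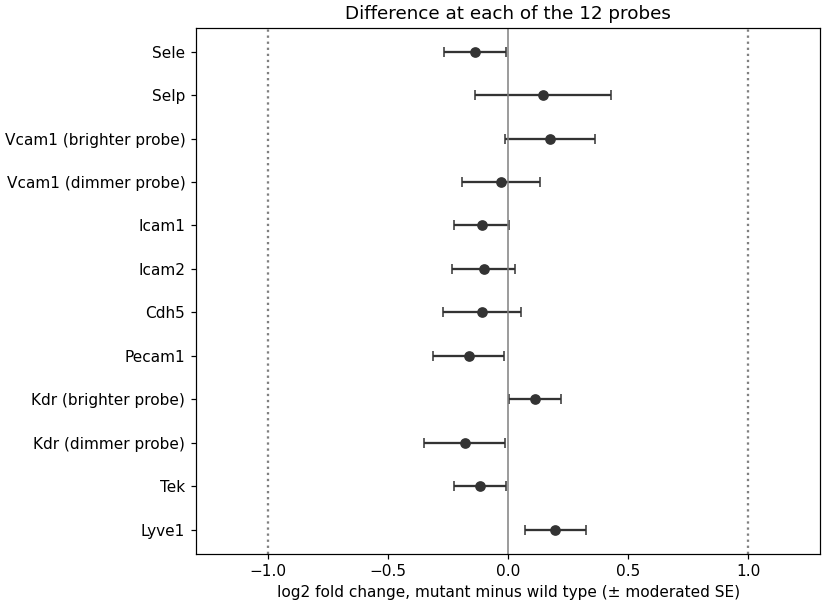
Log2 fold change, mutant minus wild type, of each of the 12 probes with limma's moderated standard error (n = 2 mice per group), and dotted lines at a 2-fold change in either direction. All 12 points lie between -0.18 and 0.20, and the 2 probes of Kdr and of Vcam1 lie on opposite sides of 0.

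The inducible adhesion genes were also set against the vessel genes of the same array. The mean log2 value of Sele, Selp, Vcam1 and Icam1 minus that of Icam2, Cdh5, Pecam1, Kdr and Tek was -1.43 and -1.55 in mutant mice 1 and 2, against -1.61 and -1.56 in wild-type mice 1 and 2. Both mutants were higher, with mutant mouse 2 almost level with wild-type mouse 2. The group means differed by 0.09, which is given as a description without a test. Without mutant mouse 1, the mouse high in Selp, the difference was 0.03.

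Other blood endothelial genes gave a like picture of small differences between the genotypes. Of 25 tested, 9 had higher and 16 lower values in the mutants, with 0 past the threshold over all genes, 0 at an unadjusted p under 0.05 and a median log2 fold change of -0.05. Emcn, endomucin, had -1.99 and -2.73 in the mutants, against -1.91 and -1.94 in the wild types, which is a difference of -0.44 ± 0.26. Nos3, the endothelial nitric oxide synthase, had 1.44 and 0.71 in the mutants, against 1.19 and 1.49 in the wild types. In both genes mutant mouse 2 stood below the other 3 mice. Adgrl4, an adhesion G protein-coupled receptor of endothelium, had a difference of -0.28 ± 0.14 and S1pr1, a receptor for sphingosine 1-phosphate, one of -0.25 ± 0.19.

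The 2 mutants differed from each other in the vessel lists, and not in these alone. With each gene centred over the 4 arrays, the median of the 25 blood endothelial genes was 0.14 and -0.20 in mutant mice 1 and 2, against 0.09 and -0.00252 in wild-type mice 1 and 2. The 10 genes of the vessel wall had a smaller gap, with centred medians of 0.039 and -0.041 in mutant mice 1 and 2. In wild-type mice 1 and 2 theirs were 0.094 and -0.036, so that mutant mouse 2 was almost level with wild-type mouse 2. Mutant mouse 2 was the lowest of the 4 mice in 19 of these 25 genes (76%), in 5 of 9 lymphatic genes, in 5 of 8 pericyte genes and in 5 of the 10 genes of the vessel wall, where it was the lowest in 22.1% of all genes tested. It was also the lowest in 9 of 18 vascular growth factor and receptor genes, 4 of 8 leukocyte genes, 3 of 6 platelet genes, 6 of 13 cytokine and receptor genes and 7 of 21 leukocyte partner genes, but in 1 of 8 tissue macrophage genes and 0 of 4 keratinocyte genes. These counts were made after the values were seen and have no test. Pericytes are the cells around capillaries, and not all 8 genes of the pericyte list are limited to them. These 8 genes had centred medians of 0.13 and -0.22 in the mutants, against 0.06 and 0.05 in the wild types. Among them Kcnj8, a potassium channel subunit, had a difference of -0.50 ± 0.14 (limma adjusted p = 0.657), Des, desmin, -0.32 ± 0.26, Notch3 0.21 ± 0.12 and Abcc9, the regulatory partner of Kcnj8, -0.20 ± 0.22. The array of mutant mouse 2 also stood apart over all genes, and the part of this in the vessel genes was not tested. Without mutant mouse 2 the median log2 fold change was 0.11 for the blood endothelial and 0.069 for the pericyte list, and without mutant mouse 1 it was -0.25 and -0.29 for the same lists.

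**Figure D4:**
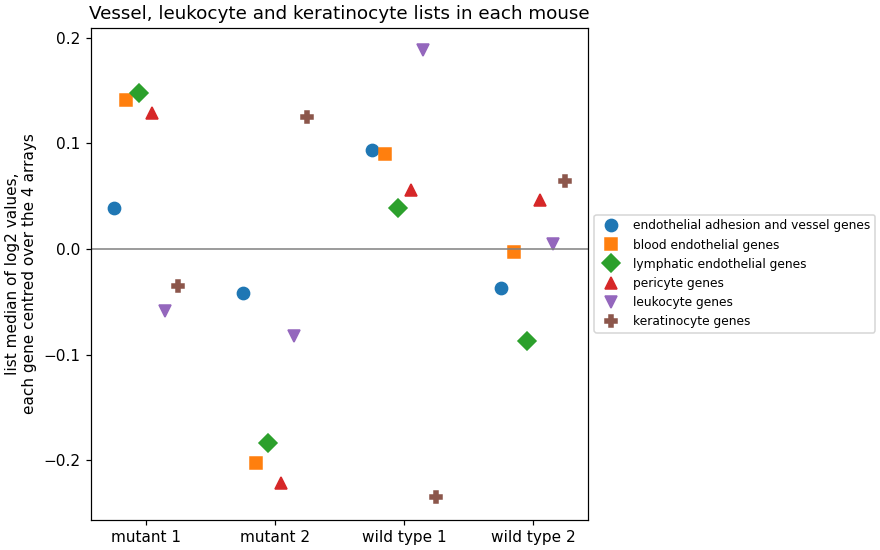
Median over the genes of each list of the log2 value centred per gene over the 4 arrays, by mouse (mutants on the left, wild types on the right). The blood endothelial, lymphatic and pericyte medians are between 0.13 and 0.15 in mutant mouse 1 and between -0.22 and -0.18 in mutant mouse 2, with the wild-type mice in between. Medians of the 10 genes of the vessel wall are 0.039 and -0.041 in mutant mice 1 and 2, against 0.094 and -0.036 in wild-type mice 1 and 2.

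Growth factors and receptors of vessels were read from 18 genes, of which 4 had higher and 14 lower values in the mutants. Of these, 0 passed the threshold, and the median log2 fold change was -0.08. Limma's unadjusted p was under 0.05 in 2 of the 18, against 6.5% of all genes tested. Those 2 were Aplnr, the apelin receptor (-0.35 ± 0.10; limma adjusted p = 0.677), and Dll4, a Notch ligand of sprouting vessels (-0.30 ± 0.11). Esm1, a secreted product of endothelial tip cells, had -4.87 and -5.28 in the mutants, against -2.43 and -5.32 in the wild types, so that its difference of -1.20 ± 0.98 came from wild-type mouse 1 alone. Angptl4, which inhibits lipoprotein lipase, had -0.28 ± 0.28.

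On the leukocyte side, 21 of 22 genes that encode partners of these adhesion molecules, enzymes that build selectin ligands or other junction adhesion molecules were tested, 12 with higher and 9 with lower values in the mutants and a median log2 fold change of 0.00415. None passed the threshold over all genes. Limma's unadjusted p was under 0.05 in 4 of the 21, against 6.5% of all genes tested. Among the 4 were Itgb2, Fermt3 and Itgb7, which were lower in both mutants. Itgb2, the shared chain of the beta 2 integrins that bind ICAM-1 and ICAM-2, had 0.90 and 0.87 in the mutants, against 1.38 and 1.31 in the wild types. The groups did not overlap, and its difference of -0.46 ± 0.10 had a limma adjusted p of 0.570. Itgb7, an integrin chain that pairs with alpha 4, had -0.46 ± 0.15. Fermt3, which encodes the integrin activator kindlin-3, had -0.45 ± 0.10. Itga4, whose product binds VCAM-1, had -0.15 and -2.71 in the mutants, against -2.37 and -2.57 in the wild types, and its difference of 1.04 ± 0.86 came from mutant mouse 1, the mouse that was high in Selp. Leukocyte marker genes were read beside these: of 8 tested 1 had a higher and 7 lower values in the mutants, with a median of -0.20 and 0 past the threshold. Limma's unadjusted p was under 0.05 in 2 of the 8, against 6.5% of all genes tested. Coro1a, an actin regulator of leukocytes, had -0.38 ± 0.11 and Ptprc, which encodes CD45, -0.36 ± 0.13. Csf3r and Itgam, found on neutrophils and other myeloid cells, had -0.08 ± 0.10 and 0.02 ± 0.12. The part of leukocyte number in the values of Itgb2 was not tested.

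Of 14 cytokine and receptor genes that act on endothelial adhesion molecules 13 were tested, 5 with higher and 8 with lower values in the mutants. Of these, 0 passed the threshold, and the median was -0.09. Limma's unadjusted p was under 0.05 in 2 of the 13, against 6.5% of all genes tested. These were Il13, a type 2 cytokine known to induce VCAM-1, and Tnf. Il13 had -2.95 and -2.33 in the mutants, against -3.59 and -3.99 in the wild types, a difference of 1.15 ± 0.27 (limma adjusted p = 0.577). Tnf had -1.96 and -2.06 in the mutants, against -1.70 and -1.43 in the wild types, a difference of -0.45 ± 0.14 (limma adjusted p = 0.709). Osm, oncostatin M, and Lta, lymphotoxin alpha, had -0.50 ± 0.27 and -0.49 ± 0.28. Il1b, at 3.07 and 1.78 in the mutants, against 2.35 and 2.68 in the wild types, was highest in mutant mouse 1 and lowest in mutant mouse 2, the same order as in Selp. Its difference between the groups was -0.09 ± 0.45. Of 23753 genes tested, 5882 were highest in mutant mouse 1 and 5251 were lowest in mutant mouse 2, and a link of Il1b to Selp was not tested. The 4 keratinocyte genes Krt5, Krt14, Krt1 and Krt10 had a median of 0.17, with 3 higher and 1 lower and 0 past the threshold.

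**Figure D5:**
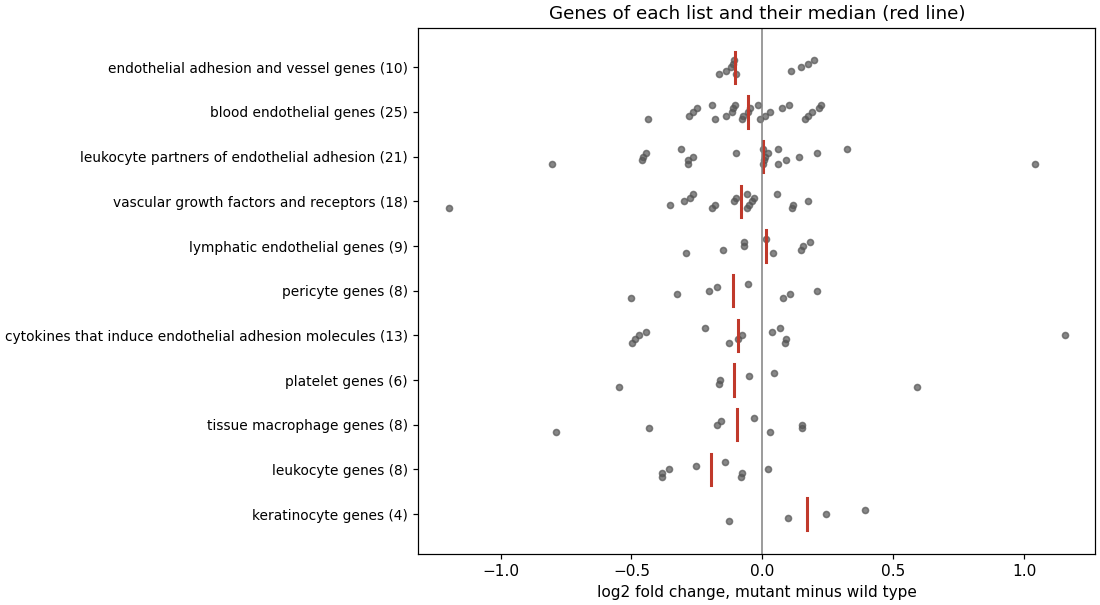
Log2 fold change, mutant minus wild type, of every tested gene of the 10 genes of the vessel wall and of 10 further lists (points), with the median of the list in red and the number of tested genes in brackets. List medians lie between -0.20 for leukocyte genes and 0.17 for keratinocyte genes, and the 10 genes of the vessel wall spread no wider than -0.16 to 0.20.

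In their pattern over the 4 mice, the genes closest to Sele were Naglu, Use1 and Fam149a, with root mean square differences of 0.00873, 0.00900 and 0.00927 in log2 values centred per gene. Closest to Cdh5 were Enpp1, Myl9 and Tmem38a, with 0.0120, 0.0140 and 0.0146. With only 4 mice and flat profiles such likeness is common: 2352 of 15366 genes compared lay within 0.1 of Sele and 1070 within 0.1 of Cdh5.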

How the data were processed

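The 4 arrays were of 1 slide. The deposited intensities of each spot were made with Agilent's Feature Extraction software (version 10.7.3.1), per the file headers. The processed intensity has a fitted spatial background subtracted and a multiplicative trend divided out, dim spots hold surrogate values, and arrays were not scaled to each other. Probe positions are on mm9. Flags for spots well above background, saturated or outlying are the authors' deposited values of 0 or 1. The authors' deposited series matrix holds the linear ratio of each processed intensity to the array median, found from the values, which matched for 59305 spots within 1.46e-05 on the log2 scale.

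After 3671 control spots and outlier spots were left out, log2 processed intensities minus the array's 75th percentile were averaged per probe. Probes (33664 of 55596) entered the test if both arrays of 1 or both groups had them well above background. The tested probe of highest mean signal stood for its gene, named by the current RefSeq symbol where the accession matched. Mutant minus wild type was fitted with limma 3.58.1 (lmFit, eBayes) in R 4.3.3, over 23753 genes and again over all probes, two-sided, with Benjamini-Hochberg adjustment at 0.05. Residual degrees of freedom were 2, to which eBayes added 2.51. The fit was also run on simulated data, with normal noise drawn independently for each gene and of equal size on the 4 arrays. Such data do not model an array that stands apart, as that of mutant mouse 2 did. The run therefore checks the code and not the results. Errors after ± are limma's moderated standard errors unless called SD. The number of arrays limits the precision. Figures used matplotlib 3.10.9 in python 3.11.15.

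A damaged area was any spot with over 10% of its bright neighbours, within 8 rows and 6 columns, at least 1 log2 unit below the mean of the other arrays. The labels number the mice 1 and 2 in each group without saying that they are paired, so no block entered the model. The genes, lists and tests were chosen with earlier results of these data known, and no list was tested as a set. The alternatives were other background corrections, scalings, filters on dim probes and ways to pick a gene's probe, array weights, a trended robust eBayes, the damaged area left out, replicate blocks and each mouse left out. The normexp correction added an offset of 50 to the intensities. Named are Rela, the 10 genes with every probe, up to 4 genes of each list with the largest difference, and the 3 genes closest to Sele and to Cdh5. Pf4, Itga2b, F13a1, Cd163, Mrc1, Tnf, Il1b, Csf3r, Itgam and Fermt3 were named after their values were seen. The result of 1 gene of the lists is not reported here.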

Additional observations from a re-analysis of the deposited data

How the results depend on the processing

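None of the 10 genes of the vessel wall, and none of the genes of the 10 further lists, passed limma's threshold in any of the 17 alternatives, and the smallest adjusted p of the 10 genes was 0.649, for Selp without mutant mouse 2. At an unadjusted p under 0.05 there were 0 of the 10 genes in every alternative but 1, in which 1 gene had it, without mutant mouse 2. The sign of the difference turned in 4 cases, none past the threshold. With 1 mouse left out, Selp ranged over -0.25 (without mutant mouse 1) to 0.54 (without mutant mouse 2), Vcam1 over -0.051 (without wild-type mouse 2) to 0.40 (without wild-type mouse 1) and Cdh5 over -0.26 (without mutant mouse 1) to 0.039 (without mutant mouse 2). Kdr was -0.035 with the mean of the detected probes. Genes without overlap and lower in the mutants numbered 1 with normexp background correction (13.6% of all genes then), against 3 of 10, and 3 to 7 when 1 mouse was left out, where 1 mouse set against 2 overlaps less often and 30.1% to 33.5% of all genes were lower without overlap. Those higher without overlap numbered 1 with the mean of the detected probes, against 2, where 18.6% of all genes were, and 2 to 3 with 1 mouse left out, where 30.5% to 39.2% of all genes were. Over all genes 4 were called. There were 2 with quantile normalization and with the percentile taken over probes that every array had above background, 1 without a filter for dim probes and 1 with only probes above background on all 4 arrays, 14 with eBayes with trend and robust, and 0 to 81 when 1 mouse was left out, with 81 without mutant mouse 1, where the one mutant left was assumed to vary like the wild types, 1 without mutant mouse 2 and 0 without either wild-type mouse. The replicate block left 1 call and the crossed replicate block, chosen after seeing the data, 1 call. The difference of mouse 1 from mouse 2 in the mutants was weakly and negatively correlated with that in the wild types (r = -0.19 across genes). The labels do not say that the numbers pair the mice. The difference between inducible and constitutive genes lay between 0.03 and 0.16 when 1 mouse was left out, and it could not be computed with the damaged area left out, since Cdh5 then has no value. The cause of these changes was not tested.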
